A study of Mus musculus with 6 samples.

Results

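The insulin-like growth factor (IGF) axis was examined as 10 genes taken by symbol: the ligands *Igf1* and *Igf2*, the receptors *Igf1r* and *Igf2r*, and the binding proteins *Igfbp2* to *Igfbp7*. All 10 were found among the 54525 gene rows of the count tables. The RNA came from C2C12, a mouse muscle cell line that proliferates as single myoblasts and forms multinucleated myotubes by fusion. Libraries were made from 3 wild type (WT) samples of myoblasts at day 0 (D0) and from 3 at day 5 of differentiation (D5), and the labels give no treatment for either group. Differentiation was started by replacing growth medium with fetal bovine serum by medium with horse serum at a lower percentage. The source of serum, its amount and the time therefore differed together between the groups and cannot be told apart. Every library came from the same line, and all comparisons are between D5 and D0.

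IGF-I and IGF-II are secreted hormones that signal through the tyrosine kinase receptor encoded by *Igf1r*, and in skeletal muscle they are known to promote myoblast proliferation, differentiation and fiber growth. The receptor encoded by *Igf2r*, which is also the cation-independent mannose-6-phosphate receptor, takes IGF-II to the lysosome and is known as a clearance receptor. The binding proteins hold IGFs outside the cell and either limit or prolong their access to the receptor, and proteases such as pappalysins release the ligand by cutting some of them.

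Gene counts totaled 36555048 to 40895840 in the D0 libraries and 25449759 to 25811300 in the shallower D5 libraries. Levels of 1 gene are given as CPM, counts per 1000000 gene counts after TMM scaling. Levels of different genes are compared as TPM, transcripts per 1000000, which divides by exonic length. Log2 fold changes are D5 over D0. A gene was called where the quasi-likelihood test of edgeR gave an adjusted p below 0.05, after Benjamini-Hochberg adjustment across the 16290 genes that passed the filter on low counts, and every adjusted p here is from that test unless another is named. Myotube markers matched the labels. The summed level of *Myog*, *Mymk*, *Ckm*, *Acta1* and *Myh3* was 26.3 to 33.5 CPM at D0 and 9815 to 10492 CPM at D5, and all 5 rose. The summed myoblast markers were 2302 to 2395 CPM at D0 and 3456 to 3486 CPM at D5, with *Myod1*, *Myf5* and *Pax7* lower and *Des* higher. Bulk RNA does not tell fewer cells of a type from less RNA per cell, and cultures of this line at D5 are known to keep unfused cells beside the myotubes.

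Of the 10 genes, 9 passed the filter and *Igf2* did not. At D5, 6 of the 9 were higher (*Igf1*, *Igf1r*, *Igfbp3*, *Igfbp4*, *Igfbp6* and *Igfbp7*) and 3 were lower (*Igf2r*, *Igfbp2* and *Igfbp5*). *Igf1r* and *Igfbp7* turned negative with spike-in scaling and without scaling. Among all genes tested, 42.2% were higher and 40.8% lower at D5, so being called was common. No D5 library overlapped a D0 library in CPM for any of the 9, where 42.2% of all genes tested had every D5 library above every D0 library and 41.1% had every D5 library below. *Igfbp3* and *Igfbp4* passed the filter through their D5 counts alone. The median log2 fold change was 0.45 for the 9 genes and 0.20 for the 7 without them, against 0.0022 for all genes tested. The median of the absolute values was 0.70 for those 7, near the 0.67 of all genes tested, and 2.33 with the pair included.

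**Figure D1:**
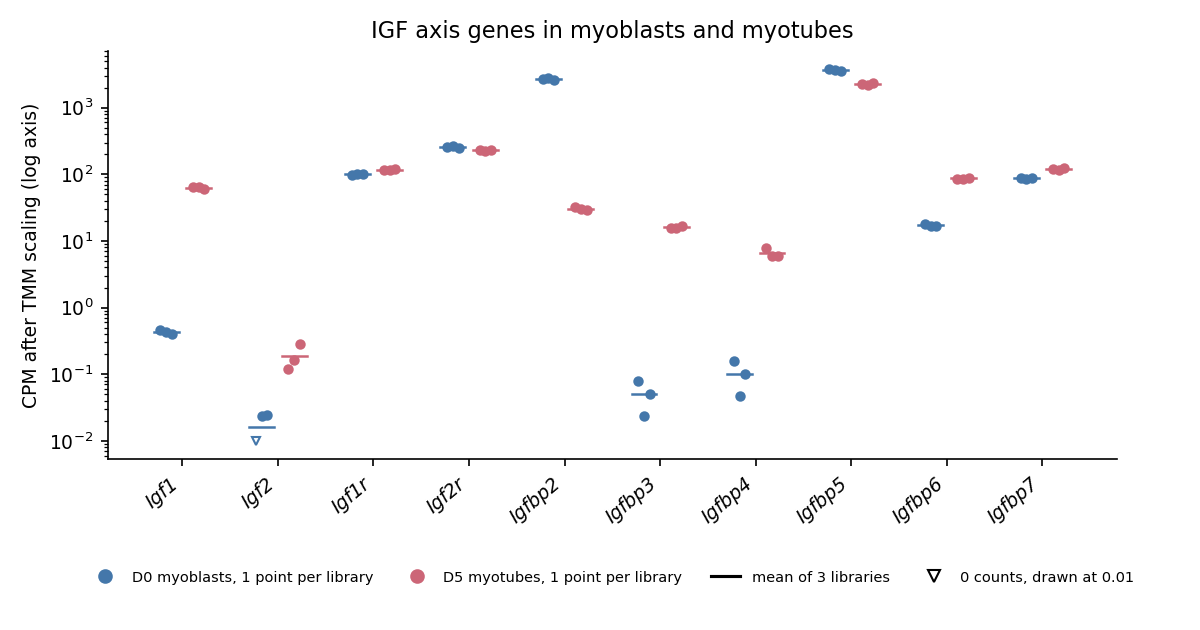
CPM (log axis) of each IGF axis gene in each of the 3 D0 and 3 D5 libraries, 1 point per library, with bars at the group means and 0 counts as open triangles. *Igfbp2* fell from a mean of 2697 to 30.3 CPM, while *Igf1*, *Igfbp3* and *Igfbp4* were under 1 CPM in every D0 library.

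The ligand gene *Igf1* rose from near the limit of detection. *Igf1* (ENSMUSG00000020053.18, GRCm38 chromosome 10, 87858265 to 87937042, plus strand) had 17, 18 and 16 counts at D0 and 1606, 1606 and 1517 at D5. This was 0.454, 0.428 and 0.397 CPM at D0 and 63.9, 65.2 and 61.0 CPM at D5, and the groups were far apart with little spread in either. The log2 fold change was 7.20 ± 0.089 (SE), or 147-fold (adjusted p = 2.0e-33, edgeR). Per length, its level went from 0.149 ± 0.00764 TPM to 19.8 ± 0.776 TPM (SD, n = 3).

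*Igf2* (ENSMUSG00000048583.16, chromosome 7, 142650766 to 142666816, minus strand), the fetal IGF, had 0, 1 and 1 counts at D0 and 3, 4 and 7 at D5. These counts do not give its level. The annotated gene *Gm49394* lies on the same strand and shares 3596 of the 5723 exonic bases of *Igf2* (62.8%) and 546 of its 678 coding bases (80.5%). Reads in such overlaps were hardly counted in these tables: of 751 genes with every exonic base shared with a same-strand gene, 719 (95.7%) had 0 counts in all libraries. Of 41884 genes with no shared base, 52.5% had 0 counts, and of 451 genes shared in full with the opposite strand alone, 45.0% did. *Gm49394* itself had 2, 0 and 2 counts at D0 and 7, 10 and 3 at D5. The ratio of the summed *Igf2* counts, D5 over D0 after scaling, was 11.2 with an exact conditional 95% interval of 2.58 to 102, which covers counting error only and describes the part of the gene that could be counted.

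The genes beside *Igf2* share few exonic bases on the same strand, 3.41% in *H19* and 0 in *Ins2*, so this limit hardly touches them. *H19*, the noncoding RNA of the same imprinted domain, lies 72622 bases from *Igf2* and was at 7177, 7001 and 6714 CPM at D0 and 7494, 8145 and 7894 CPM at D5, with a log2 fold change of 0.17 ± 0.037 (SE; adjusted p = 1.1e-04, edgeR) that turned to -0.38 with spike-in scaling and to -0.51 without scaling. *Ins2*, an insulin gene 11839 bases away on the other side, had 1, 5 and 4 counts at D0 and 18, 18 and 24 at D5. It passed the filter through D5 alone and was called higher (adjusted p = 2.5e-08, edgeR), at levels under 1 CPM in every library. The ratio of its summed counts was 9.63 with an exact conditional 95% interval of 4.89 to 21.1.

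The receptors changed little. *Igf1r* (ENSMUSG00000005533.10, chromosome 7, 67952827 to 68233668, plus strand) was at 98.7, 102 and 101 CPM at D0 and 115, 115 and 119 CPM at D5. Its log2 fold change was 0.20 ± 0.034 (SE) after TMM scaling (adjusted p = 3.2e-06, edgeR), but turned to -0.37 with an adjusted p of 0.60 when libraries were scaled to the ERCC spike-ins, synthetic RNAs added to each sample, and to -0.48 without scaling. In TPM the groups overlapped, from 20.0 to 21.1 at D0 and from 20.8 to 21.8 at D5. The log2 fold change of *Igf1r* was 0.21 with DESeq2's size factors, 0.19 with upper-quartile factors and 0.12 with total counts per library. Its direction was therefore the same in these fits as with TMM, and differed with the spike-ins and without scaling. Unscaled counts keep the difference in depth between the groups.

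*Igf2r* (ENSMUSG00000023830.14, chromosome 17, 12682406 to 12769664, minus strand) was at 254, 265 and 248 CPM at D0 and 228, 227 and 229 CPM at D5. Its log2 fold change was -0.16 ± 0.033 (SE; adjusted p = 4.1e-05, edgeR), and was -0.73 with an adjusted p of 0.27 with spike-in scaling. *Airn*, the noncoding RNA transcribed antisense to *Igf2r* and known for silencing its paternal copy, fell from 8.06, 7.97 and 8.77 CPM at D0 to 3.90, 5.64 and 4.70 CPM, a log2 fold change of -0.80 ± 0.11 (SE; adjusted p = 6.3e-08, edgeR). The exons of *Igf2r* share no base with another gene.

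Ratios within a library do not depend on the scaling between libraries. The *Igf1r* to *Igf2r* ratio in TPM was 0.218 ± 0.00657 at D0 and 0.282 ± 0.00427 at D5 (SD, n = 3). The ratio of *Igf1* to *Igf1r* in TPM went from 0.00719 to 0.927 ± 0.0488, so by this measure ligand and receptor messages were near the same level at D5. In CPM, which does not divide by length, their D5 means were 63.4 for *Igf1* and 116 for *Igf1r*. For these ratios, and for the shares below, no D0 and D5 library overlapped, and the two-sided exact permutation p was 0.1, the smallest that 3 libraries against 3 can give.

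Of the 9 genes tested, the binding protein genes *Igfbp2* and *Igfbp5* had the highest levels at D0, and both were lower at D5. Both genes lie on chromosome 1, 5457 bases apart and on opposite strands, with their 3′ ends facing each other. *Igfbp2* (ENSMUSG00000039323.18, 72824503 to 72852474, plus strand) was at 2708, 2745 and 2638 CPM at D0 and 32.0, 29.9 and 29.1 CPM at D5. It fell 88.9-fold, a log2 fold change of -6.47 ± 0.045 (SE; adjusted p = 1.8e-39, edgeR). At 5051 ± 91.6 TPM it ranked 10 among all genes tested at D0, and at 51.0 ± 3.44 TPM it ranked 2958 at D5.

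*Igfbp5* (ENSMUSG00000026185.8, 72857932 to 72874884, minus strand), the binding protein long known to be made by differentiating C2C12 cells, was at 3768, 3652 and 3617 CPM at D0 and 2304, 2171 and 2309 CPM at D5. It fell to 61.5% of its D0 level, a log2 fold change of -0.70 ± 0.034 (SE; adjusted p = 7.0e-18, edgeR). It was the most abundant of the 9 genes tested at D5, at 1168 ± 58.9 TPM against 2119 ± 13.4 TPM at D0 (SD, n = 3). The pair of neighbors thus fell to very different extents.

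The binding protein genes *Igfbp3* and *Igfbp4* were close to the limit of detection at D0 and present at D5. *Igfbp3* (ENSMUSG00000020427.11, chromosome 11, 7206086 to 7213923, minus strand), the main carrier of IGFs in blood, had 3, 1 and 2 counts at D0 and 395, 387 and 415 at D5. All D0 libraries were at or under 3 counts, taken as not detected, so the ratio of the summed counts after scaling is given with its counting interval: 320, with an exact conditional 95% interval of 147 to 874. *Igfbp3* passed the filter through D5 alone, and its edgeR adjusted p was 2.3e-26. Its level at D5 was 15.9 ± 0.562 TPM (SD, n = 3).

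*Igfbp4* (ENSMUSG00000017493.12, chromosome 11, 99041244 to 99054392, plus strand), a binding protein that pappalysin-1 is known to cut, had 6, 2 and 4 counts at D0 and 195, 148 and 150 at D5. The D5 levels were 7.76, 6.01 and 6.03 CPM, with replicate 1 above the other D5 libraries. The ratio of the summed counts was 65.9 with a 95% interval of 37.4 to 128. *Igfbp4* also passed the filter through D5 alone, with an edgeR adjusted p = 7.9e-20.

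*Igfbp6* (ENSMUSG00000023046.6, chromosome 15, 102144362 to 102149511, plus strand), which prefers IGF-II, was at 17.9, 16.9 and 16.9 CPM at D0 and 84.2, 86.4 and 89.2 CPM at D5. It rose 5.03-fold, a log2 fold change of 2.33 ± 0.045 (SE; adjusted p = 2.0e-28, edgeR). *Igfbp7* (ENSMUSG00000036256.13, chromosome 5, 77349240 to 77408041, minus strand), a related protein that binds IGFs weakly, was at 89.1, 86.1 and 88.5 CPM at D0 and 119, 115 and 126 CPM at D5. Its log2 fold change was 0.45 ± 0.037 (SE) after TMM scaling (adjusted p = 2.2e-12, edgeR), but turned to -0.14 with an adjusted p of 0.86 with spike-in scaling and to -0.23 without scaling. Of its exonic length, 7.03% overlaps *Polr2b* on the opposite strand.

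Markers of fibroblasts moved with these rises. Their summed level was 1.01 to 1.33 CPM at D0 and 41.0 to 48.9 CPM at D5, with 2 of 3 markers higher: *Pdgfra* rose from 1.04 ± 0.151 to 24.0 ± 1.77 CPM and *Dpt* from 0.0823 ± 0.0335 to 20.1 ± 2.67 CPM (SD, n = 3), where *Dpt* passed the filter through D5 alone. The third marker, *Thy1*, had at most 1 count in any library. Their part in the rise of *Igf1*, *Igfbp3*, *Igfbp4* and *Igfbp6* was not tested. Summed endothelial markers were at 2.46 to 2.97 CPM at D0 and at 0.325 to 0.402 CPM at D5, with *Kdr* lower. Summed markers of leukocytes, adipocytes, osteoblasts and hepatocytes were under 1 CPM in every library, with *Adgre1*, *Cidec*, *Ibsp*, *Alb* and *Ttr* at 0.

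The sequences upstream of the 4 binding protein genes that moved most or lie side by side are shown, so that the stretches next to their annotated starts can be compared. They were taken from RefSeq promoters (GRCm38.p6), run 5′ to 3′ on the strand of the gene and end at the base before the start site or, for *Igfbp5*, before the first annotated exon base. *Igfbp2* is shown for the farther upstream of its RefSeq starts alone. Capitals mark the E-box CANNTG, the 6-base motif bound by MyoD and other basic helix-loop-helix proteins, which reads the same on both strands in this form. The windows are chr1:72824230-72824479 (plus) for *Igfbp2*, chr1:72874885-72875115 (minus) for *Igfbp5*, chr11:7213924-7214173 (minus) for *Igfbp3* and chr11:99040994-99041243 (plus) for *Igfbp4*.
Igfbp2: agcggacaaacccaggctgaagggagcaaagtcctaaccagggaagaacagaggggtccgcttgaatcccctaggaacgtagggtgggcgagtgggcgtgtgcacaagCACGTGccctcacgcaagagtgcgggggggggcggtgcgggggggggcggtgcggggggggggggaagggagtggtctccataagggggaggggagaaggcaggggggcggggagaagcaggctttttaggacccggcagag
Igfbp5: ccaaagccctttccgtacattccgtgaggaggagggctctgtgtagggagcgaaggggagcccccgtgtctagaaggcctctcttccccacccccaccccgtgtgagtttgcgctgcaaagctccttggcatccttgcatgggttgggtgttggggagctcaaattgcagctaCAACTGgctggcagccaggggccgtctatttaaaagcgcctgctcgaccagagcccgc
Igfbp3: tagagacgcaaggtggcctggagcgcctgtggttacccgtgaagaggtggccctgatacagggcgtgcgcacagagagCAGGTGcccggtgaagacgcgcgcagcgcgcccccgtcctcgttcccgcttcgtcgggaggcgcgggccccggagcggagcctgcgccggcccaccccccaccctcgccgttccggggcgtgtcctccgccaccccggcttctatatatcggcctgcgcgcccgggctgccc
Igfbp4: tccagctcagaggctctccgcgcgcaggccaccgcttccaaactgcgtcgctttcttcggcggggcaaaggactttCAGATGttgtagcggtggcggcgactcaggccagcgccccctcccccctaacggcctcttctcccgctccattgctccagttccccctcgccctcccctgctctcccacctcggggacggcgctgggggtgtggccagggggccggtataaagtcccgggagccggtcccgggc

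Each of the 4 windows held 1 E-box, at 142 bases before the RefSeq start in *Igfbp2* (CACGTG), 77 in *Igfbp5* (CAACTG), 172 in *Igfbp3* (CAGGTG) and 174 in *Igfbp4* (CAGATG). Across the RefSeq windows of all 10 genes the number of E-boxes ran from 0 to 4. Of 32851 RefSeq windows of 250 bases, 66.2% held at least 1 CANNTG, so a match is common, and it describes the letters alone. The form CAGCTG, contained in CANNTG, was in none of the 4 windows and in 13.0% of all. Among the windows of the 10 genes, only that of *Igf1*, not shown, held it, 157 bases before the start. Over the full 250 bases before the RefSeq start, GC content was 67.2% in *Igfbp2*, 58.8% in *Igfbp5*, 73.2% in *Igfbp3* and 69.2% in *Igfbp4*. For *Igfbp5* these bases run past the end of the sequence shown. The *Igfbp2* window not shown, chr1:72825137-72825386 (plus), held 1 E-box 55 bases before its start and had a GC content of 56.4%.

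The makeup of the binding protein messages differed between the stages. The 6 *Igfbp* genes summed to 7427, 7566 and 7433 TPM at D0 and to 1847, 1699 and 1822 TPM at D5, a 4.18-fold lower total at D5. *Igfbp2* made up 67.1%, 68.1% and 67.4% of this sum at D0 and 2.97%, 2.91% and 2.67% at D5. *Igfbp5* went from 28.7%, 27.9% and 28.4% to 65.9%, 64.9% and 65.1%, so its share rose while its level fell. *Igfbp6* went from 0.717% ± 0.019 to 13.5% ± 0.476, and *Igfbp7* from 3.37% ± 0.0941 to 17.2% ± 0.329 (SD, n = 3). *Igfbp3* and *Igfbp4* reached 0.889% ± 0.0222 and 0.259% ± 0.0377 at D5. With CPM in place of TPM, which does not divide by length, the directions were the same but the change in share was -40.4 in place of -64.7 percentage points for *Igfbp2*, 3.17 in place of 12.8 for *Igfbp6* and 3.40 in place of 13.8 for *Igfbp7*. The summed *Igfbp* TPM was 361 ± 9.70 times the *Igf1r* TPM at D0 and 83.5 ± 1.75 times at D5, a ratio that also rests on exonic lengths.

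**Figure D2:**
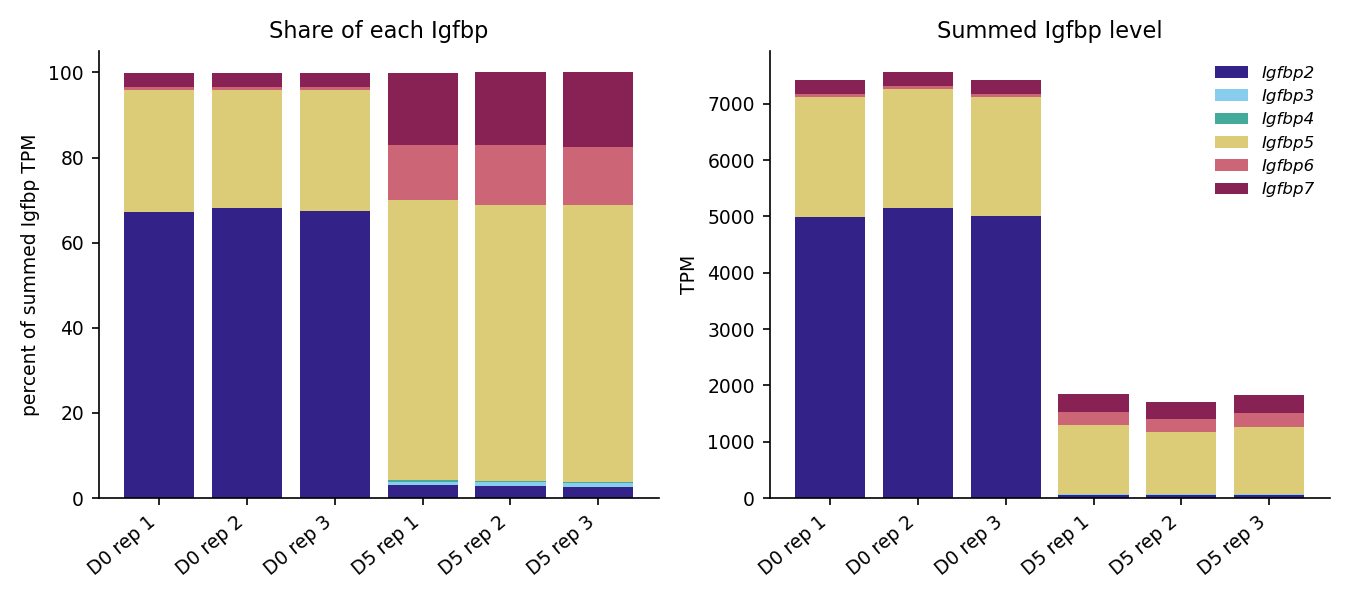
Share of the summed TPM of 6 *Igfbp* genes (percent) (left) and the sum itself (TPM, right) in each of the 3 D0 and 3 D5 libraries, 1 stacked bar per library with a color per gene. *Igfbp2* filled 67.1% to 68.1% of the bar at D0, and *Igfbp5* 64.9% to 65.9% at D5.

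Ordered by TPM, the D0 levels ran from *Igfbp2* and *Igfbp5* through *Igfbp7* (252 ± 4.84), *Igf2r* (95.0 ± 3.25), *Igfbp6* (53.6 ± 0.951) and *Igf1r* (20.7 ± 0.629) down to *Igf1*, *Igfbp4* (0.0799 ± 0.043) and *Igfbp3* (0.0564 ± 0.0303). Of these neighbors only *Igfbp4* and *Igfbp3* had ranges that overlapped. At D5 the order was *Igfbp5*, *Igfbp7* (308 ± 15.7), *Igfbp6* (242 ± 5.17), *Igf2r* (76.0 ± 1.69), *Igfbp2*, *Igf1r* (21.4 ± 0.533), *Igf1*, *Igfbp3* and *Igfbp4* (4.65 ± 0.807), and no neighbors overlapped. *Igf2* is left out of the order.

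**Figure D3:**
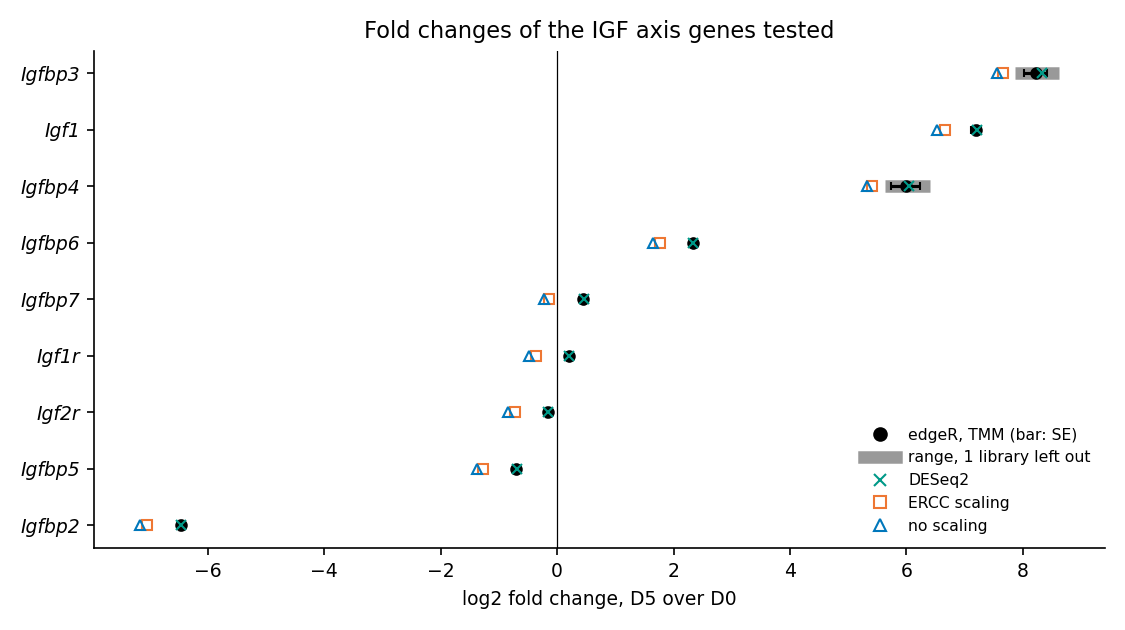
Log2 fold change, D5 over D0, of the 9 IGF axis genes tested: TMM scaling with bars of 1 SE and a gray band for the range with 1 library left out, DESeq2 (crosses), ERCC spike-in scaling (squares) and no scaling (triangles). *Igf1r* and *Igfbp7* lie above 0 with TMM and below 0 with the spike-ins and without scaling, and the other 7 keep their sign in all 4 fits.

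Of the genes that act on IGF availability, the protease gene *Pappa* and the inhibitor gene *Stc2* fell, and the protease gene *Pappa2* rose. Of a list of 11 genes (further carriers, pappalysins and their inhibitors, other proteases, and IGF2 mRNA-binding proteins), 7 were tested, of which 3 had a higher and 4 a lower level at D5, where 42.2% and 40.8% of all genes tested did. Their median log2 fold change was -0.57, against 0.0022 for all genes tested. This median and the 3 higher genes include *Pappa2*, which was tested through its D5 counts alone. *Pappa*, encoding the protease pappalysin-1, had 12790, 14704 and 14354 counts at D0 and 58, 64 and 53 at D5, a mean of 349 ± 7.53 CPM against 2.35 ± 0.235 CPM (SD, n = 3). It fell 149-fold, a log2 fold change of -7.22 ± 0.059 (SE; adjusted p = 6.5e-38, edgeR). Its paralog *Pappa2*, encoding pappalysin-2, which is known to cut IGFBP-3 and IGFBP-5, went the other way, from 5, 11 and 5 counts to 428, 415 and 441. It passed the filter through D5 alone and was called higher (adjusted p = 3.8e-26, edgeR). The ratio of its summed counts was 98.1 with an exact conditional 95% interval of 63.9 to 159.

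*Stc2*, encoding stanniocalcin-2, an inhibitor of pappalysins, fell from 116 ± 3.95 to 8.70 ± 0.902 CPM (SD, n = 3), with a log2 fold change of -3.74 ± 0.056 (SE; adjusted p = 2.5e-31, edgeR). *Pappa* and *Stc2* were thus both lower at D5 than at D0, at means of 2.35 and 8.70 CPM at D5. *Pappa2*, which rose, was at a mean of 17.2 CPM at D5. The other 4 tested genes ran from -2.33 (*Igf2bp3*) to 0.45 (*Htra1*), with *Igf2bp2* lower and *Adam12* higher, and *Htra1* and *Adam12* turned negative with spike-in scaling and without scaling. Of those not tested, *Igfbp1*, 3539 bases from *Igfbp3* on chromosome 11, had 0 counts in every library, *Igfals* at most 1 and *Stc1* at most 3, and *Igf2bp1* was low in both groups.

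**Figure D4:**
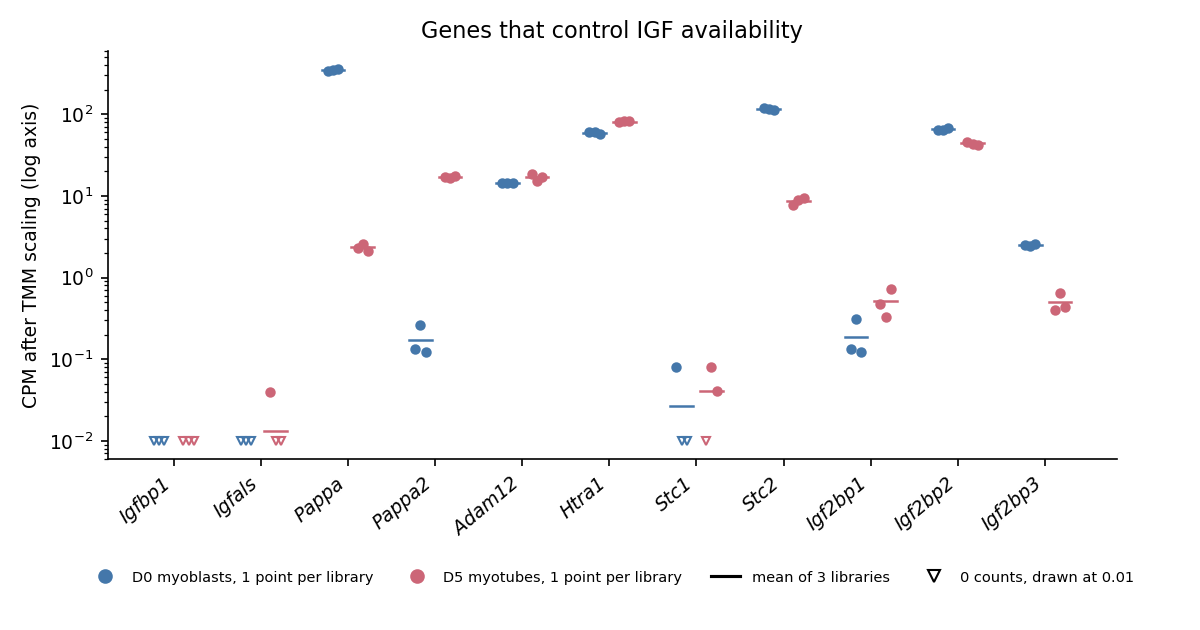
CPM (log axis) of the genes of the IGF availability list in each of the 3 D0 and 3 D5 libraries, 1 point per library, with bars at the group means and 0 counts as open triangles. *Pappa* falls from 349 to 2.35 CPM while *Pappa2* rises to 17.2 CPM.

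Downstream of the receptors, 14 genes of the insulin and IGF signaling pathway were all tested. The list was shortened after its values were seen, so its counts and medians describe these 14 genes alone. Of them, 7 were higher, 4 lower and 3 did not pass the threshold, where 42.2% of all genes tested were higher and 40.8% lower. Their median log2 fold change was 0.17 and their median absolute value 0.34, against 0.0022 and 0.67 for all genes tested. These medians and the 7 higher genes include *Grb14*, which was tested through its D5 counts alone. *Grb14* and *Grb10*, adaptors known to inhibit the insulin and IGF-I receptors, and *Pik3r1*, the regulatory subunit of PI3-kinase, rose most. *Grb14* had 3, 2 and 8 counts at D0 and 69, 52 and 60 at D5 (adjusted p = 5.6e-14, edgeR). It passed the filter through D5 alone, and the ratio of its summed counts was 22.3 with an exact conditional 95% interval of 12.7 to 42.8. *Grb10* went from 0.543 ± 0.0625 to 2.45 ± 0.298 CPM (SD, n = 3), and its log2 fold change was 2.17 (adjusted p = 7.8e-11, edgeR). *Pik3r1* was at 44.1, 44.6 and 45.3 CPM at D0 and 161, 152 and 163 CPM at D5, a log2 fold change of 1.83 (adjusted p = 9.9e-28, edgeR). *Akt2*, *Shc1*, *Pik3cb* and *Irs1* were also higher, of which all but *Akt2* turned negative with spike-in scaling and without scaling, *Akt1*, *Irs2*, *Insr* and *Pik3ca* lower, and *Grb2*, *Pik3r2* and *Pdpk1* were not called. With spike-in scaling 2 of the 14 (*Grb14* and *Grb10*) were higher, *Pik3r1* had an adjusted p of 0.051, and 0 were lower in edgeR's test, with 0 lower at an unadjusted p under 0.05, and DESeq2 with its own size factors called 7 higher and 3 lower.

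The genes whose levels were most like those of *Igfbp3* and *Igfbp2*, which had the largest fitted rise and fall among the 9 IGF axis genes tested, were found among 12801 protein-coding genes, by the Euclidean distance of log2(TPM + 1) over the 6 libraries. For *Igfbp3* the 3 nearest were *Trp63* (distance 0.101), *Dkk3* (0.175) and *Pi15* (0.215). For *Igfbp2* they were *Hist1h4k* (2.15), *Ctgf* (2.19) and *Hist1h4f* (2.92), all farther from it than the 3 genes above were from *Igfbp3*. *Hist1h4k* and *Hist1h4f* are near-identical histone genes whose reads the counting could split, so their levels are uncertain. These distances describe levels in 6 libraries of 2 groups.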

How the data were processed

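Per the labels, RNA of 6 C2C12 samples was sequenced and the authors deposited raw featureCounts counts per gene on GRCm38, with no normalization. The labels name Tophat2 2.0.0 and NGS-QC-Toolkit 2.3.3, the paper's methods name HISAT2 and FastQC, and which made these counts is not settled. The annotation release, strand setting and treatment of overlaps are not given in the sources used here. In the counts, 97.6% of gene rows matched GENCODE M21 by identifier and version.

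The 92 ERCC rows (0.720% to 2.09% of counts) and 1 unnamed row equal to the column total entered neither library sizes nor tests. D5 was compared with D0 by edgeR 4.0.16 (TMM, filterByExpr, quasi-likelihood test) in R 4.3.3, adjusted by Benjamini-Hochberg over 16290 genes. Each SE was obtained by dividing the absolute log2 fold change by the square root of F. Shares within a library were compared by a two-sided exact permutation test. The scripts were tested on simulated data with 200 changed genes, far fewer than were called in these libraries. Alternatives were DESeq2 1.42.0, other scalings and filters, a replicate block and each library left out. Replicate pairs differed by more than sampling noise (chi-square per degree of freedom 2.16 to 3.45). The p-values measure the spread between these samples, whose independence the labels do not describe.

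The genes and lists were chosen with earlier results of these data known. The signaling list was shortened to 14 genes after its values were seen, and the genes taken out are not reported here. For the IGF axis genes, the medians without genes that passed the filter through 1 group were added after seeing the data. The availability and signaling medians are given with such genes included. Values were given for all 10 genes, for the 3 largest absolute fold changes past the threshold in each list, for genes at 3 counts or fewer in every library, and for neighbors and markers.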

Additional observations from a re-analysis of the deposited data

How the results depend on the processing

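Across 14 alternative settings, 119 of 124 recomputed fold changes of the IGF axis genes kept their direction and their side of the threshold. Scaling decided the others. Without scaling, which moved the median log2 fold change of all genes to -0.68, *Igf1r* turned to -0.48 and *Igfbp7* to -0.23, and the axis had 5 genes lower, availability genes 1 higher, signaling genes 4 higher and 10 lower, and all genes 3353 higher and 10953 lower. With ERCC scaling (median -0.58) *Igf1r* turned to -0.37 and *Igfbp7* to -0.14, *Igf2r* (-0.73) lost its call, availability genes had 1 higher, signaling genes 2 higher and 0 lower, and all genes 1813 higher and 3747 lower. The axis had 4 genes higher in both, 4 with at least 10 counts required in every library, where *Igfbp3* and *Igfbp4* were not tested, and 7 without a filter, where *Igf2* was called (log2 fold change 3.17, adjusted p 0.0019 in edgeR's test). With CPM in place of TPM, the change in share, D5 minus D0, was -40.4 percentage points for *Igfbp2*, 0.636 for *Igfbp3*, 32.9 for *Igfbp5*, 3.17 for *Igfbp6* and 3.40 for *Igfbp7*, since CPM does not divide by length. With any 1 library left out, 6 genes of the axis were higher and 3 lower, and all genes had 6723 to 6936 higher and 6513 to 6663 lower. With a replicate block the axis again had 6 higher and 3 lower, and all genes 6894 higher and 6664 lower. Each library correlated best with the library of its own number, though weakly (correlations of their deviations 0.0329, 0.0645 and 0.0277). What the replicate number stands for is not stated.

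Depth limits *Igfbp3*, *Igfbp4* and *Grb14* at D0, where counts of 8 or fewer set the size of each ratio, and these libraries cannot give the level of *Igf2*. Unscaled counts keep the lower depth of the D5 libraries in the fold changes. The cause of the shift with ERCC scaling was not tested, and ERCC shares varied between libraries of 1 group.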
